A study of Mus musculus with 6 samples.

Results

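Collagen chain genes were examined in mouse bone marrow stroma (mesenchymal stem and progenitor cells, MSPCs) that lacked Snai2. The members were all genes in the authors' deposited table whose symbol has the form of a collagen chain (Col, a number, the letter a and a number), 10 of 1285 genes. The cells came from Snai2-/- mice, which lack the transcriptional repressor Slug, and were set against cells of littermates labelled Control. The column headers of the authors' deposited table read Wildtype, which was taken for this group. Its exact genotype at Snai2 is not further described. Both groups comprised 3 libraries, each made from 2000 marrow cells sorted at 8 weeks of age as CD45-, Ter119-, CD31- and Nes-GFP+. All libraries therefore came from animals that carried the Nes-GFP reporter, a green fluorescent protein under nestin sequences. Whether each library came from its own animal is not stated, so the spread between these libraries may be partly technical. The model behind the authors' p-values is not stated either, so how far they cover variation between animals is not known.

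The table gives 1 mean per gene and group on a normalized read scale whose unit the sources used here do not give. It adds a ratio, an unadjusted p, and the false discovery rate (FDR), a p adjusted over all genes tested by the step-up method. Values of single libraries and their depths were not analysed here, so no spread stands beside any mean, and whether the groups overlap cannot be seen. In the authors' deposited table Snai2 itself averaged 9.20 in Snai2-/- cells and 636 in Control cells.

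Collagens are secreted or membrane-bound matrix proteins whose chains wind around each other into a triple helix. Fibrillar collagens form the banded fibrils of bone, cartilage and skin, collagen VI forms beaded microfibrils around cells, fibril-associated collagens sit on fibril surfaces, and transmembrane collagens are anchored in the cell membrane. In bone, osteoblasts lay down type I collagen as the scaffold on which mineral is deposited.

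Of the 10 chains, 5 had higher and 5 had lower means in Snai2-/- cells, beside 631 higher and 654 lower among all 1285 listed genes. Among the listed chains the direction followed the class in all but the fibril-associated collagens. These were only 2 of 11 fibrillar, 2 of 4 transmembrane and 3 of 6 collagen VI genes, so the direction of whole classes is not known. The fibrillar chains Col1a1 and Col11a1 and the transmembrane chains Col13a1 and Col25a1 were higher. The collagen VI chains Col6a1, Col6a2 and Col6a3 were lower, as was Col26a1, which belongs to none of these classes. The fibril-associated chains divided, with Col22a1 higher and Col16a1 lower.

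In the authors' deposited table no chain reached FDR 0.05, where 0 of 16718 genes tested (0%) did, and all differences below rest on unadjusted p. Only genes whose unadjusted p was below 0.05 are in the table, so every chain it lists had to pass that limit, and ratios chosen in this way are biased away from 1. It listed 7.69% of the genes tested, 3.77% as higher and 3.91% as lower in Snai2-/- cells. Of the 44 collagen chain genes annotated in the mouse, 34 were not listed. A gene missing from the table was either untested or above that limit, and no value for it was analysed here. The 10 listed chains were 22.7% of the annotated ones, but how many of the 44 were tested is not known, so this share cannot be read against the 7.69%.

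**Figure D1:**
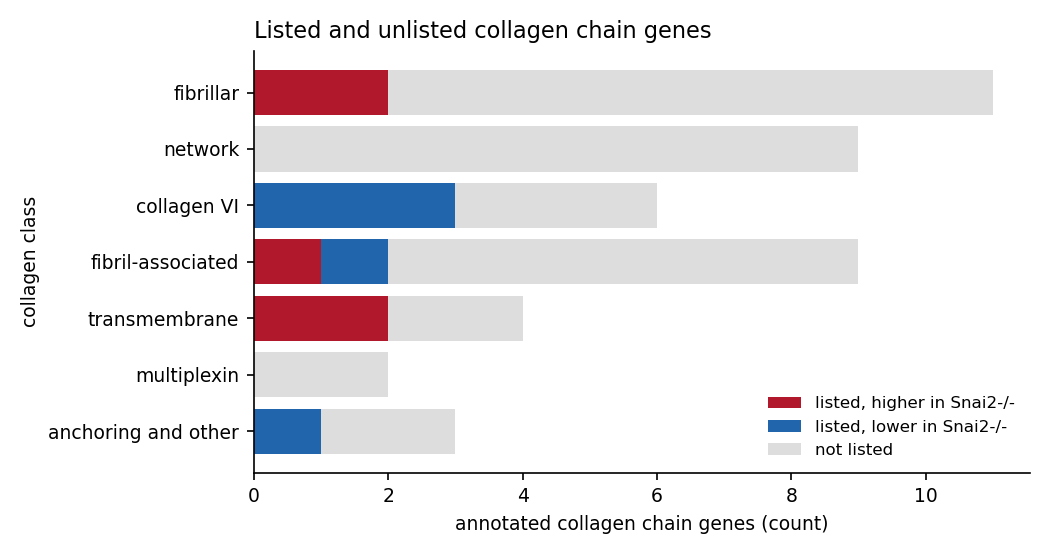
Number of annotated collagen chain genes (x axis, count) in each collagen class (y axis), divided into those listed with a higher mean in Snai2-/- cells, those listed with a lower mean and those not listed. The 9 network and 2 multiplexin genes held no listed chain, and 3 of the 6 collagen VI genes were listed as lower.

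Col1a1 encodes the α1 chain of type I collagen, the main protein of bone matrix (GRCm38 chromosome 11, 94936224 to 94953042, plus strand). Its mean was 15244 in Snai2-/- cells against 2546 in Control cells, and no gene listed in the authors' deposited table had a higher mean in Snai2-/- cells. In Control cells it ranked 3 among the 1285. The ratio was 5.99, with p = 0.0274 and FDR = 0.582 in the authors' deposited table. Col1a2, whose product pairs with that of Col1a1 in type I collagen, was not listed.

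Col11a1 encodes a chain of type XI collagen, a minor fibrillar collagen that shapes the fibrils of cartilage (chromosome 3, 114030540 to 114220718, plus strand). Its mean was 434 in Snai2-/- cells and 99.4 in Control cells. The ratio was 4.36, and its p of 0.0458 (FDR = 0.64) was the highest among the chains and thus the nearest to the limit of the authors' deposited table. Col11a2 and Col2a1, whose products join that of Col11a1 in cartilage fibrils, were not listed, nor were the other fibrillar genes Col3a1, Col5a1, Col5a2, Col5a3, Col24a1 and Col27a1.

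The 3 listed collagen VI chains were lower in Snai2-/- cells by similar factors, with ratios from 0.488 to 0.563, whereas both listed fibrillar chains were higher. The median ratio over all 654 listed lower genes was 0.572, so ratios of this size are not particular to collagen VI. Col6a1 (chromosome 10, 76708792 to 76726168, minus strand) averaged 1064 in Snai2-/- cells and 1888 in Control cells. Its ratio of 0.563 came with p = 0.00452 and FDR = 0.381 in the authors' deposited table. Col6a2 (chromosome 10, 76595762 to 76623630, minus strand) averaged 608 in Snai2-/- cells and 1247 in Control cells, and in the authors' deposited table its ratio of 0.488 had p = 0.00209 and FDR = 0.333. Both were among the abundant listed genes, ranking 9 and 20 by mean in Snai2-/- cells and 5 and 10 in Control cells. Col6a3, the longest of the trio (chromosome 1, 90765923 to 90843971, minus strand), was far less abundant, at 29.0 in Snai2-/- and 54.5 in Control cells. Its ratio was 0.531, with p = 0.0238 and FDR = 0.561 in the authors' deposited table.

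The products of these 3 genes assemble together into the collagen VI monomer. The proportions of their RNA were nearly the same in both genotypes, which follows from the similar ratios above. Per kilobase of the longest annotated transcript, Col6a1 made up 67.2% of the trio in Snai2-/- cells and 64.0% in Control cells. Col6a2 made up 32.1% in Snai2-/- and 35.3% in Control cells, and Col6a3 made up 0.743% in Snai2-/- and 0.75% in Control cells. These shares assume that the deposited means are not already scaled by length. The other collagen VI genes, Col6a4, Col6a5 and Col6a6, were not listed. Col6a1 and Col6a2 are neighbours on the same strand, 85.2 kb apart, with 1 annotated gene between them that was not listed, while Col6a3 lies on another chromosome.

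**Figure D2:**
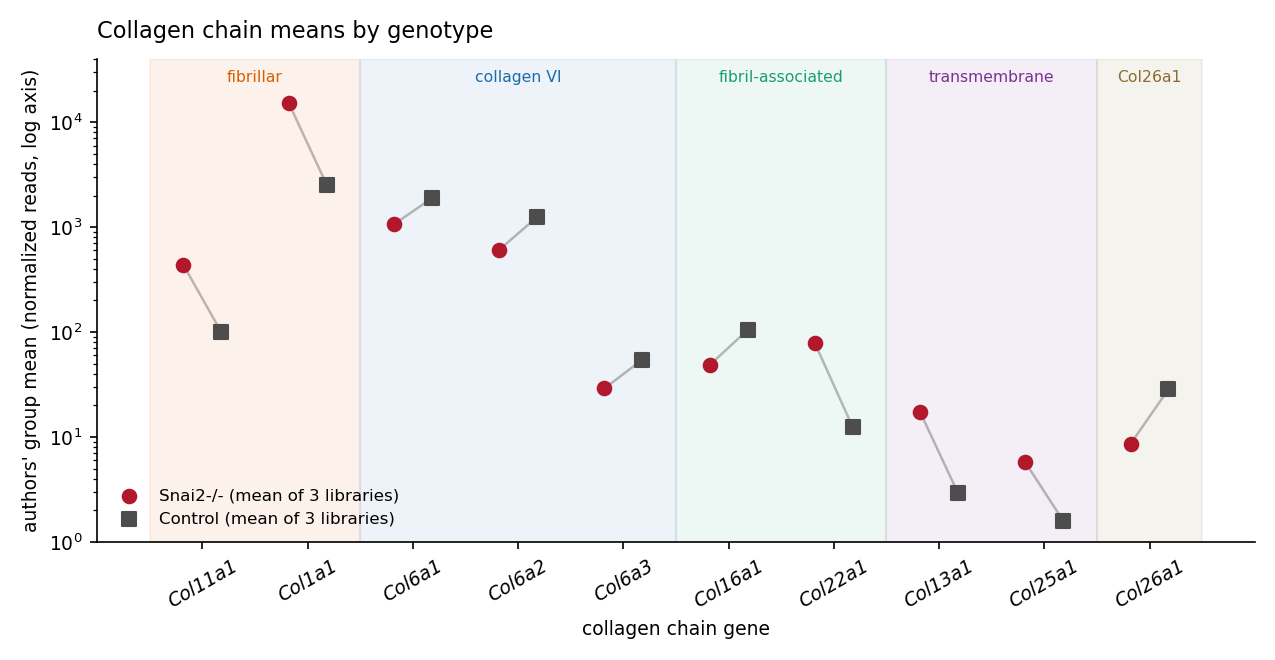
Authors' group means of the 10 collagen chains (y axis, normalized reads, log axis) by gene and class (x axis), with Snai2-/- cells as red circles left of Control cells as grey squares; each point is a mean of 3 libraries and no error can be drawn. Col1a1 stood at 15244 in Snai2-/- and 2546 in Control cells, and the lines of the 3 collagen VI chains all climb towards Control.

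The 2 listed fibril-associated chains went opposite ways. Col16a1 (chromosome 4, 130047840 to 130099283, plus strand), a chain with many interruptions of its triple helix, averaged 48.4 in Snai2-/- and 104.6 in Control cells. Its ratio of 0.463 had p = 7.55e-05, rank 5 of all genes and the smallest of any chain, with FDR = 0.199 in the authors' deposited table. It was the 1 chain below an FDR of 0.2, a limit that 0.102% of the genes tested passed. Col22a1 (chromosome 15, 71795795 to 72034227, minus strand), a collagen known from the junction of muscle and tendon, averaged 78.3 in Snai2-/- cells and 12.4 in Control cells. Its ratio of 6.33 was the highest among the chains, with p = 0.0236 and FDR = 0.56 in the authors' deposited table. That rank passed to Col1a1 with 10 added to both means, where the log2 ratio was 1.98 for Col22a1 and 2.58 for Col1a1, and with 1 added, where it was 2.57 for Col22a1 and 2.58 for Col1a1. An annotated antisense gene overlaps Col22a1, and since the library chemistry does not mark the strand, reads of both cannot be told apart. The other fibril-associated genes, among them Col12a1, Col14a1 and the collagen IX genes Col9a1, Col9a2 and Col9a3, were not listed.

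Snai2 encodes a repressor that binds the E-box CAGGTG, which reads CACCTG on the other strand. The start regions of Col16a1 and of the 3 listed collagen VI genes are shown, while those of the higher chains are not. Col26a1, also lower, was not matched. Whether the repressor acts on any of these genes was not tested. Each line gives the bases just before the RefSeq start on GRCm38.p6, without any that an annotated transcript of the gene covers, 5′ to 3′ on the strand of the gene, with the E-box in capitals. For Col6a1, whose RefSeq start is at 76726044, the line therefore stops at 76726169, short of that start. Col6a2 has 2 RefSeq starts, and the outer one is shown.
Col16a1 (chr4:130047590-130047839, plus strand): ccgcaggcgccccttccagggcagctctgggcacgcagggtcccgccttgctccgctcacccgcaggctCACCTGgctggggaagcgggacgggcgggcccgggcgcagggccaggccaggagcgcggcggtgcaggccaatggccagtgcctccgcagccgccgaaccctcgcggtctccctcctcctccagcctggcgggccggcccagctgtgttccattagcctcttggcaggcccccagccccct
Col6a1 (chr10:76726169-76726294, minus strand): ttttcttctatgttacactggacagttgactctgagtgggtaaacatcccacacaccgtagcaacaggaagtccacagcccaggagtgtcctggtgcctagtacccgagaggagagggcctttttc
Col6a2 (chr10:76623631-76623880, minus strand): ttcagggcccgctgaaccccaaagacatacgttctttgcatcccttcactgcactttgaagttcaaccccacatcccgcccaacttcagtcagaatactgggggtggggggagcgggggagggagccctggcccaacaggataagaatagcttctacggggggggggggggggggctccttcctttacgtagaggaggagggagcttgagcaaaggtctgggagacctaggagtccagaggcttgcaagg
Col6a3 (chr1:90843972-90844221, minus strand): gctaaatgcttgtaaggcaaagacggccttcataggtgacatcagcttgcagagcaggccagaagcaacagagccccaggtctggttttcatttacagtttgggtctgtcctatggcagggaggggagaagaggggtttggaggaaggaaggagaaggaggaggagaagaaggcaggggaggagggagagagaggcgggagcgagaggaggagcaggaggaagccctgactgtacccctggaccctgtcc

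In windows of 300 bases, 250 before and 50 after each start, the E-box occurred in 1 of the 8 windows of the 7 chains matched, that of Col16a1, 181 bases before the start. It occurred in 20.2% of all 32851 such windows in RefSeq, so 1 in 8 is no result about the chains. The windows of Col6a1, Col6a2, Col6a3, Col11a1, Col13a1 and Col25a1 did not hold these letters. The RefSeq start used for Col25a1, at 130180845, lies inside the annotated gene, which begins at 130131501. An annotated transcript of Col25a1 spans all 250 bases before that start, so its window may not be the promoter in use. Col1a1, Col22a1 and Col26a1 were not matched.

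Both listed transmembrane chains were higher in Snai2-/- cells, from low levels. Col13a1 (chromosome 10, 61838236 to 61979108, minus strand), a membrane collagen of cell adhesions and of the nerve-muscle synapse, averaged 17.3 in Snai2-/- cells against 2.91 in Control cells. Its ratio was 5.93, with p = 0.00637 (FDR = 0.394), the smallest among the higher chains, in the authors' deposited table. Col25a1 (chromosome 3, 130131501 to 130599877, plus strand), a membrane collagen needed for motor nerves to reach muscle in mice, averaged 5.71 in Snai2-/- cells and 1.59 in Control cells. Its ratio was 3.60, with p = 0.0308 and FDR = 0.591 in the authors' deposited table, on the lowest means of the 10 chains. An annotated pseudogene overlaps Col13a1 on the opposite strand, and 5 annotated genes overlap Col25a1 on its own strand. With 10 added to both means, the log2 ratios of Col13a1 and Col25a1 dropped to 1.08 and 0.44, against 2.57 and 1.85 without it. Col17a1 and Col23a1, the other transmembrane genes, were not listed.

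Col26a1 (chromosome 5, 136741759 to 136883209, minus strand) encodes a secreted collagen with an EMI domain. Its mean was 8.59 in Snai2-/- cells and 28.4 in Control cells. The ratio of 0.302 was the lowest among the chains, with p = 0.00298 and FDR = 0.356 in the authors' deposited table. The anchoring-fibril gene Col7a1 and Col28a1 were not listed, and neither were the basement-membrane genes Col4a1 to Col4a6, the network genes Col8a1, Col8a2 and Col10a1, or the multiplexin genes Col15a1 and Col18a1.

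The higher chains had larger ratios than the lower ones on the deposited scale. Absolute log2 ratios ran from 1.85 to 2.66 among the 5 higher chains and from 0.83 to 1.73 among the 5 lower ones, without overlap. This separation was lost with 1 added to both means, where Col25a1 stood at 1.38 and Col26a1 at -1.62 on the log2 scale, and with 10 added, where they stood at 0.44 and -1.05. In the whole authors' deposited table the same asymmetry was present, with a median absolute log2 ratio of 1.19 over the 631 higher genes and 0.81 over the 654 lower ones. The unadjusted p went the other way. Of the lower chains 4 of 5 had p below 0.01 (Col16a1, Col6a2, Col26a1 and Col6a1), and of the higher chains 1 of 5, Col13a1, in the authors' deposited table. Over all genes tested, 0.969% were lower and 1.21% were higher at that limit, and since listing itself required p below 0.05 nothing is read from these counts.

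**Figure D3:**
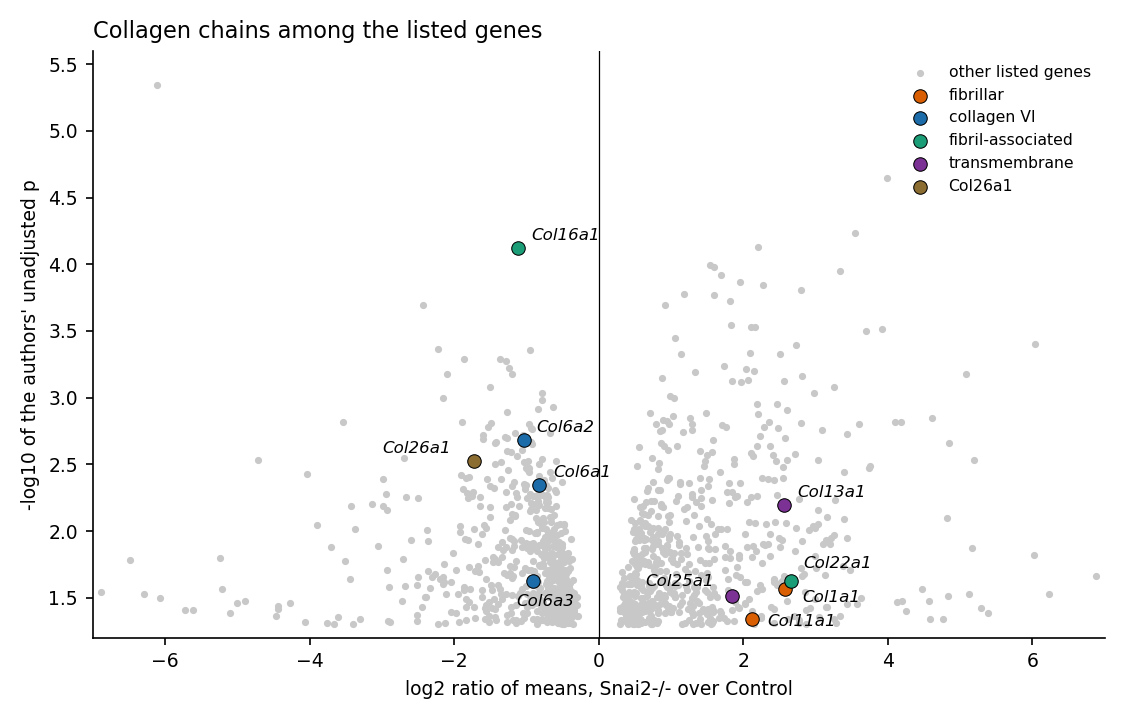
Log2 ratio of the Snai2-/- mean over the Control mean (x axis) against the negative log10 of the authors' unadjusted p (y axis) for the listed genes, grey, with the 10 collagen chains coloured by class; 8 genes beyond 7 on the log2 scale are not drawn. The 5 higher chains lie between 1.85 and 2.66, mostly low on the y axis, and Col16a1 stands highest among the chains.

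The balance between the listed classes differed between the 2 sets of group means. The means of the 10 chains summed to 17537 in Snai2-/- cells and 5984 in Control cells, a ratio of 2.93. Col1a1 alone supplied 86.9% of that sum in Snai2-/- cells and 42.5% in Control cells. The 9 other chains together summed to 2293 in Snai2-/- cells and 3439 in Control cells, a ratio of 0.667, so the higher total in Snai2-/- cells rested on Col1a1. Collagen VI supplied 9.70% of the sum in Snai2-/- cells and 53.3% in Control cells. Its own means summed to 1701 in Snai2-/- cells and 3190 in Control cells, a ratio of 0.533. The change in its share thus also rests on Col1a1 in the total, which had FDR = 0.582 in the authors' deposited table.

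Levels per kilobase allow different genes to be compared only if the deposited means are not already scaled by length. Class shares per kilobase were computed with the longest annotated transcript only. Collagen VI was then 12.7% of the listed chains in Snai2-/- cells and 60.2% in Control cells. On the same scale the fibrillar chains were 86.4% in Snai2-/- cells and 37.0% in Control cells. Col1a1 stood at 9.91 times the level of Col6a1 per kilobase in Snai2-/- cells and at 0.932 times in Control cells. The quotient of these, 10.6, does not depend on length and is the ratio of Col1a1, 5.99, over that of Col6a1, 0.563. It adds nothing to those 2 ratios, which had FDR = 0.582 and FDR = 0.381 in the authors' deposited table. Both were listed for an unadjusted p below 0.05 and are biased away from 1. The 34 genes that were not listed are missing from all these sums, so they describe the listed chains and not total collagen. In bulk samples, fewer cells of a type and less RNA per cell cannot be told apart.

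**Figure D4:**
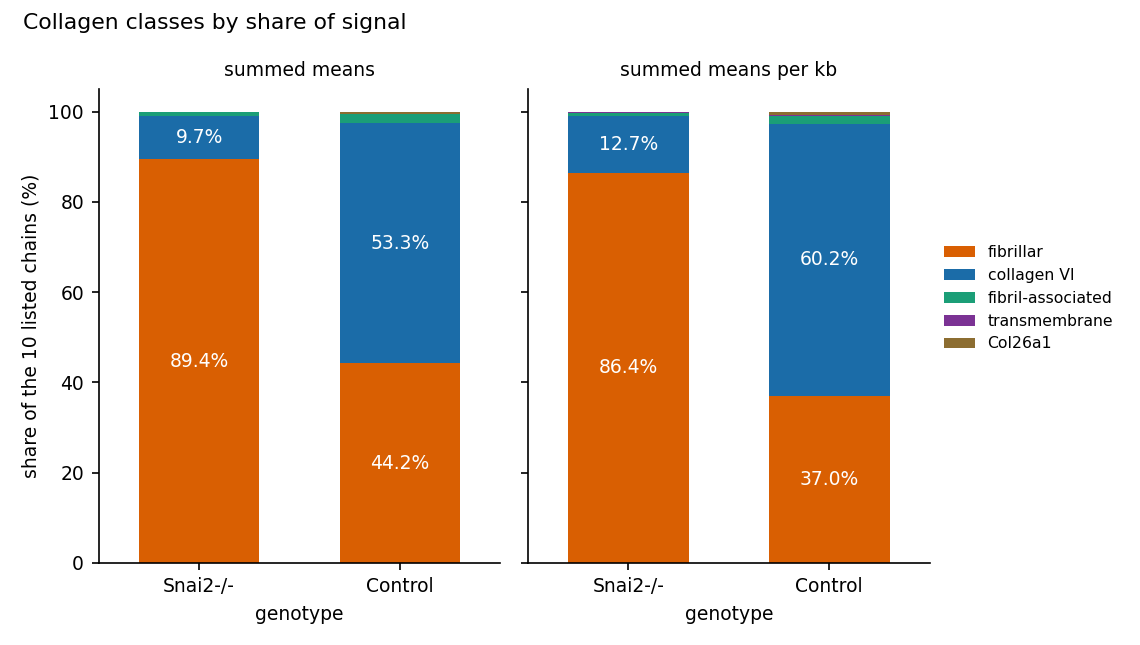
Share of each collagen class (y axis, percent) in the summed authors' means of the 10 listed chains, with Snai2-/- left of Control, as deposited (left panel) and per kilobase of the longest transcript (right panel). Collagen VI takes 9.70% in Snai2-/- against 53.3% in Control cells in the left panel. In the right panel it takes 12.7% in Snai2-/- against 60.2% in Control cells. The right panel assumes that the means are not already scaled by length.

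Genes that make, bind, cut or accompany collagen were also followed. Over all genes tested 7.69% were listed, 3.77% as higher and 3.91% as lower, and as the number tested in each of the following lists is not known, their counts are not read against these shares. Of 33 genes for collagen synthesis and processing 2 were listed, 1 higher and 1 lower. Plod3, a lysyl hydroxylase that also adds sugars to collagen, averaged 117 in Snai2-/- cells and 167 in Control cells, and its ratio was 0.703 in the authors' deposited table. Loxl4, a crosslinking enzyme of the lysyl oxidase family, averaged 15.1 in Snai2-/- cells and 5.74 in Control cells. Neither the prolyl hydroxylase genes P4ha1, P4ha2 and P4ha3 nor the collagen chaperone gene Serpinh1 was listed.

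Among 15 collagen receptor genes 2 were listed, both higher. Itga10, a collagen-binding integrin subunit of chondrocytes, averaged 12.3 in Snai2-/- cells and 2.78 in Control cells, with p = 0.0493 in the authors' deposited table. Mrc2, which takes up collagen fragments into cells, averaged 123 in Snai2-/- cells and 78.7 in Control cells. Of 15 genes for collagen degradation 3 were listed, all higher. Their median log2 ratio was 1.84, beside 1.19 over the 631 listed genes that were higher. The collagenase gene Mmp13 averaged 3699 in Snai2-/- cells and 1033 in Control cells. Mmp2, a gelatinase, had 276 in Snai2-/- and 132 in Control cells. Mmp16, a membrane-anchored protease, had 27.8 in Snai2-/- and 4.21 in Control cells.

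Of 20 fibril and microfibril partners 7 were listed, 6 with higher and 1 with lower means, and their median log2 ratio was 1.57. The fibril regulator Fmod averaged 52.9 in Snai2-/- and 18.1 in Control cells. Fibronectin (Fn1), on which collagen fibrils assemble, had 47.5 in Snai2-/- and 11.5 in Control cells. Periostin (Postn), a collagen-binding matricellular protein, had 168 in Snai2-/- cells and 56.4 in Control cells. The cartilage protein gene Comp had 158 in Snai2-/- and 36.8 in Control cells, and Tgfbi, a collagen-binding adhesion protein, had 86.2 in Snai2-/- and 30.5 in Control cells. Matn1, a cartilage matrilin, had 7.13 in Snai2-/- cells against 0.0605 in Control cells, too near 0 for a fold. Emilin1, an elastic-fibre glycoprotein, was the exception at 185 in Snai2-/- and 267 in Control cells. All 14 genes had an FDR above 0.05 in the authors' deposited table.

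**Figure D5:**
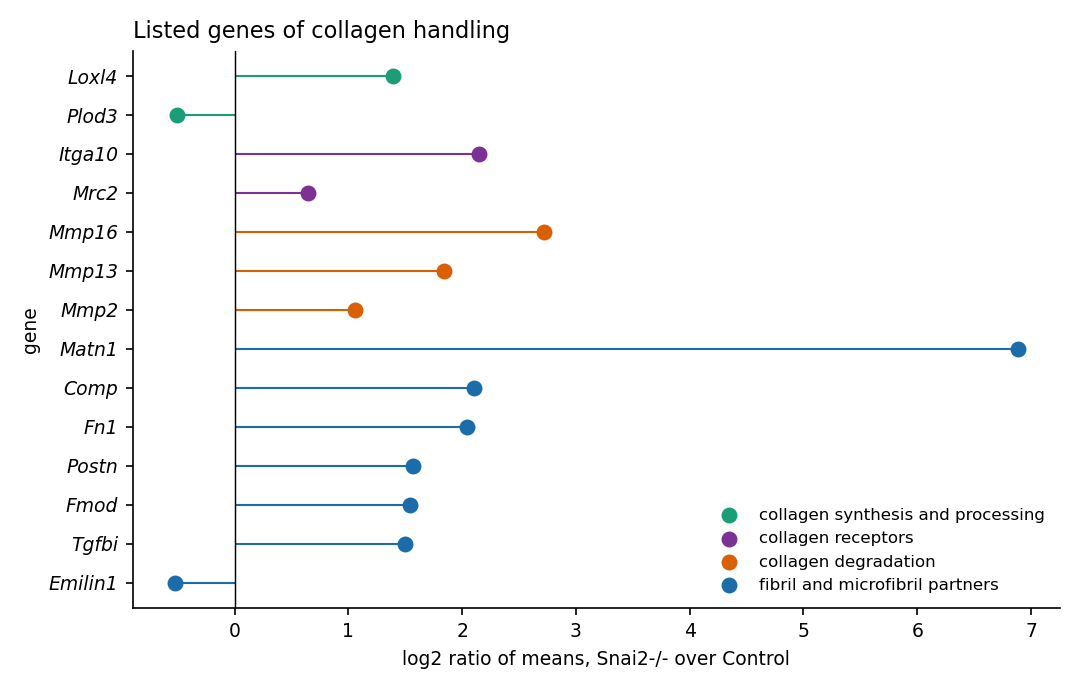
Log2 ratio of the Snai2-/- mean over the Control mean (x axis) for the 14 listed genes of collagen handling (y axis), coloured by list. Plod3 and Emilin1 lie left of 0 and the other 12 right of it; the point of Matn1 rests on a Control mean of 0.0605.

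Markers of other cell types were among the listed genes too, including blood and endothelial cells that the gate against CD45, Ter119 and CD31 is meant to remove. How many markers of each list were tested is not known, so no count is read against the 3.77% of all genes tested that were listed as higher or the 3.91% listed as lower. Of 15 osteoblast-lineage markers 6 were listed, 5 higher and 1 lower, with summed means of 8795 in Snai2-/- and 3492 in Control cells. Spp1 (osteopontin), at 7257 in Snai2-/- and 2931 in Control cells, supplied most of both sums. By Snai2-/- mean it was followed by Dmp1, a mineralization protein, at 716 in Snai2-/- and 83.1 in Control cells. Alpl had 618 in Snai2-/- and 241 in Control cells. The lower marker was Phex, at 92.2 in Snai2-/- and 223 in Control cells. In Control cells both Alpl and Phex stood above Dmp1. Of 12 chondrocyte markers 3 were listed, all higher, with sums of 273 in Snai2-/- and 46.5 in Control cells. They were Comp, Matn1 and Chad, the last at 108 in Snai2-/- and 9.70 in Control cells.

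Of 13 neutrophil and monocyte markers 7 were listed, all 7 higher, with sums of 820 in Snai2-/- and 186 in Control cells. The highest were Ngp, at 282 in Snai2-/- and 49.2 in Control cells, and S100a9, at 223 in Snai2-/- and 75.5 in Control cells. The leukocyte and erythroid markers Cd48 and Car1, 2 of 9, had 3.64 and 137 in Snai2-/- cells against 1.21 and 45.7 in Control cells. Among 9 pericyte and smooth muscle markers, Mylk had 168 in Snai2-/- and 231 in Control cells, and Des had 17.8 in Snai2-/- and 43.9 in Control cells. These 2 contractile-cell genes were thus lower, while the listed blood-cell markers were higher. Of 7 tenocyte and fibroblast markers, Mkx had 9.41 in Snai2-/- and 19.7 in Control cells, and Thbs4 had 5.50 in Snai2-/- against 0.0849 in Control cells. Of 9 endothelial markers, Flt4 had 6.85 in Snai2-/- and 3.28 in Control cells, and Vwf had 1.38 in Snai2-/- and 23.0 in Control cells. None of 5 Schwann cell markers was listed. In the authors' deposited table Spp1, S100a9, Car1, Vwf and Mylk had unadjusted p from 0.0447 to 0.0498, near its limit of 0.05.

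Of 14 stromal progenitor markers only Ebf1 was listed, with 210 in Snai2-/- and 362 in Control cells. Nes, Cxcl12, Lepr and Pdgfra had no listed value, so the labelled cell type could not be checked against its defining markers. Runx2, Bglap, Sox9, Acan and Ptprc had none either. The part of any of these cell types in the collagen differences was not tested.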

How the data were processed

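RNA of 3 Snai2-/- and 3 Control libraries, prepared with the SMART-Seq v4 and Nextera XT kits per the labels' protocols, was compared by the authors. Trim Galore, HTSeq, edgeR 3.12.0 and mm10 appear in the submitters' processing notes, without roles. The aligner is not stated in the sources used here, nor is the model behind the p-values. Per the file headers, the deposited table holds a normalized signal (the least-squares mean of each group), a ratio, a signed fold score, a p-value and its step-up FDR. None of the 1285 totals is a whole number. The header's Mutant was taken for Snai2-/- and its Wildtype for Control, as the labels hold no other groups.

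No model was fitted here, since single libraries were not analysed, so no depth or counting interval is given. The number of genes tested, 16718, was recovered from the FDR (10 of 10 simulated tables recovered), and a recomputed FDR differed by at most 0.0225%. The members and the lists were chosen with earlier results of these data known. Named were all chains, Snai2 and every listed gene of the collagen-handling lists. Of each marker list the 2 listed markers with the highest mean in either group were named. Alpl, Phex and the unlisted genes were named after the table was seen. Coordinates and transcript lengths are 1-based from GENCODE M21 (GRCm38, the assembly of mm10), and promoter sequences are from RefSeq (GRCm38.p6). Python 3.11.15, numpy 2.4.6, pandas 2.3.3 and matplotlib 3.10.9 were used.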

Additional observations from a re-analysis of the deposited data

How the results depend on the processing

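No chain passed FDR 0.05 or 0.1, 1 passed 0.2 (Col16a1) and 5 passed 0.5. Of all 16718 genes tested, 0% passed 0.05 and 0.102% passed 0.2. Limiting the table to unadjusted p below 0.01 left 1 higher chain of 5 and 4 lower chains of 5. An absolute log2 ratio of at least 1 left 5 higher and 3 lower, dropping Col6a1 and Col6a3. A mean of at least 10 in one group or the other left 4 higher and 5 lower. The shares of all genes past FDR 0.1 or 0.5, that log2 ratio or that mean were not computed. Nothing about the chains is therefore read from these counts. The sign of the log2 ratio was kept in 10 of 10 chains with 1 or 10 added to both means. Adding the same amount to both can never change it. It was also kept with the median of the listed genes (-0.36) set to 0. No sign could change there either, as the smallest absolute log2 ratio among the chains was 0.83. Adding 10 moved 4 chains by more than 1.5 times (Col13a1, Col22a1, Col25a1 and Col26a1). Lengths from the union of exons in place of the longest transcript moved 8 of the 20 levels per kilobase by over 1.5 times, and the longest coding transcript, chosen after seeing the data, moved none of the 20. With exon unions Col6a1 made up 76.3% of the collagen VI trio in Snai2-/- and 73.6% in Control cells.

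No paired analysis was possible because only 1 mean per group was analysed here. Left-out replicates, other normalizations, filters and DESeq2 were not run for the same reason, and protein features were not analysed here. Whether 1 library decides any mean cannot be seen.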
